A study of Mus musculus with 5 samples.

Results

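Complex I, the NADH:ubiquinone oxidoreductase, is the largest enzyme of the respiratory chain, and nearly all of its nuclear-encoded genes carry symbols that begin with Nduf. All 45 genes with such a symbol were taken from the 20583 genes of the deposited count table, and where a gene had several transcript rows the row with the highest mean count stood for it. They were classed as 7 core subunits, 31 accessory subunits and 7 assembly factors (symbols beginning with Ndufaf). The accessory class takes every symbol outside the other classes. It therefore counts Ndufa4, since assigned to cytochrome c oxidase, and its paralogue Ndufa4l2. The study sequenced total RNA of mouse bone marrow cells cultured for 7 days with 25 ng/ml M-CSF, the cytokine that drives their differentiation into macrophages. There were 2 libraries from NICcA mice (NICcA 2 and 3) and 3 from wild type mice (wild type 1, 2 and 3), and donors of both groups were 7 to 8 weeks old on a C57BL/6 background. The labels do not spell out NICcA, name a Cre driver or say whether marrow was pooled, and the name is used elsewhere for mice with conditional activation of the Notch intracellular domain. It is not stated whether each library had its own donor, so every p-value below is set against a spread between libraries that may be technical only.

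Complex I takes electrons from NADH, passes them through a flavin and a chain of iron-sulfur clusters to ubiquinone, and pumps protons across the inner mitochondrial membrane. The core subunits encoded in the nucleus make up the N module, which oxidises NADH, and the Q module, which reduces ubiquinone; the proton-pumping core subunits are encoded in mitochondrial DNA and were not analysed here. Accessory subunits surround and stabilise this core, and assembly factors help to build the enzyme without staying in it. In macrophages complex I is known both as the entry point of NADH into respiration and, through reverse electron transport, as a source of reactive oxygen species after activation.

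No complex I gene passed the test for a difference between NICcA and wild type macrophages, and the estimated differences were small. Of the 44 genes with enough counts to be tested, 0 passed an adjusted p of 0.05 in either direction (edgeR quasi-likelihood test, Benjamini-Hochberg adjustment over all rows), against 0.03% of all 13341 genes tested. At an unadjusted p below 0.05, edgeR called 0 of the 44 and 14.5% of all genes. DESeq2 likewise called 0 of the 44 after adjustment (3.95% of all genes) and 0 before it (16.7% of all genes). The limma-voom count was 0 before and after adjustment, against 15.5% and 0.015% of all genes. With limma on log2(RPKM + 1) it was 2 before adjustment (Ndufa4 and Ndufaf7, against 17.2% of all genes) and 0 after it (0.015% of all genes). In the text that follows, the test is that of edgeR unless another is named. The median absolute log2 fold change was 0.10 for the 44 genes, 0.21 for all genes tested and 0.17 for the 9395 genes with a mean of at least 5 CPM (read counts as parts per 1000000 of the scaled library).

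The 95% interval of the fold change lay within 1.5-fold in either direction for 37 of the 44 genes, and within 2-fold for 43 of them, Ndufaf7 being the exception. Among the 37 subunits tested, all intervals lay within 2-fold and 35 within 1.5-fold, the exceptions being Ndufa2 and Ndufab1. The narrowest were those of Ndufs1, with a fold change between 0.77 and 1.05, Ndufv2, between 0.80 and 1.13, and Ndufb5, between 0.79 and 1.12. No estimate exceeded 1.5-fold. Differences inside these bounds are not excluded by these libraries.

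**Figure D1:**
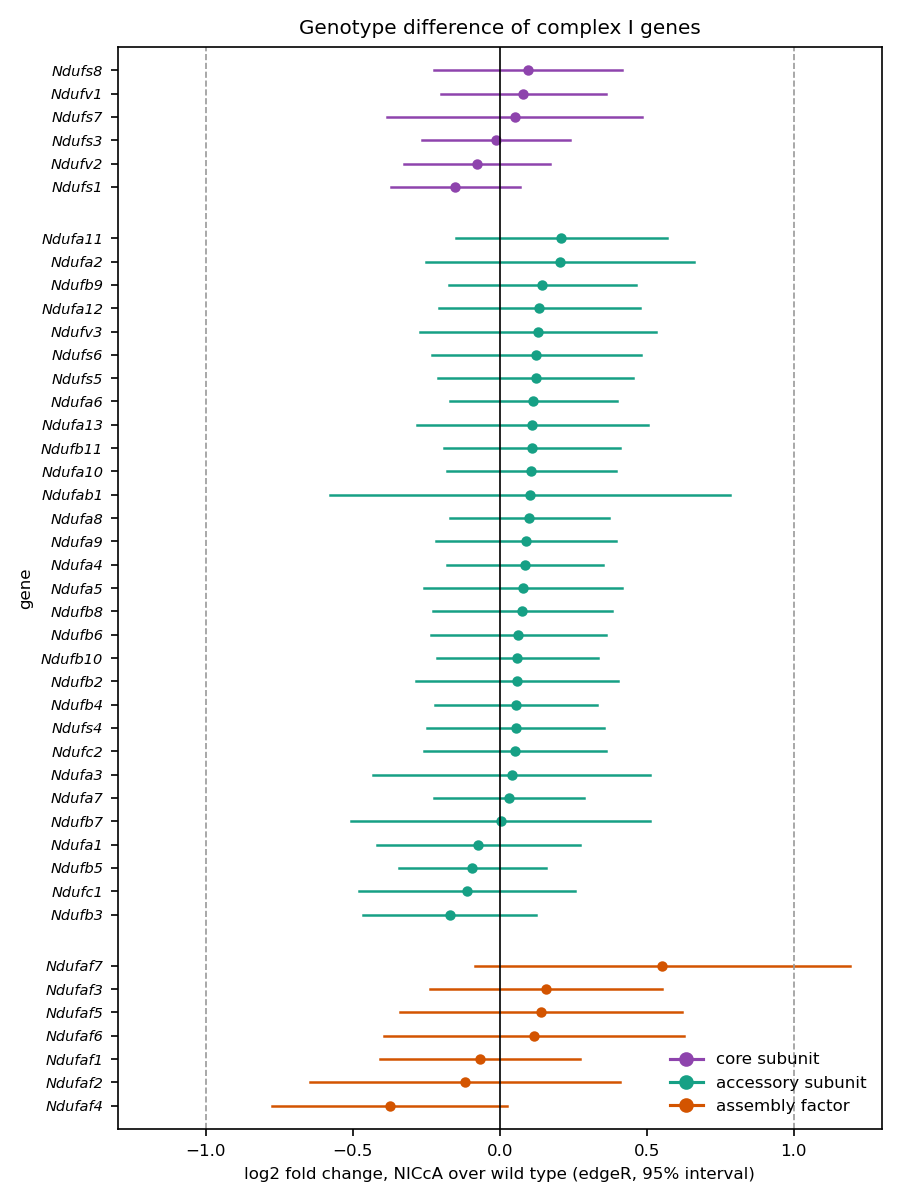
Log2 fold change of the tested complex I genes (43 are drawn), NICcA over wild type (x axis), with its 95% interval from edgeR; genes run down the page by class, and dashed lines mark a 2-fold difference in either direction. Every interval includes 0, and the interval of Ndufaf7 alone extends past a 2-fold difference.

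In 5 of the 44 genes the libraries of the groups did not overlap in CPM, a share of 11.4%, whereas the share over all genes tested was 36.8%. Both NICcA libraries lay above all wild type libraries for 3 genes, Ndufa4, Ndufa8 and Ndufaf7 (against 18.3% of all genes), and below all of them for 2, Ndufs1 and Ndufaf4 (against 18.5% of all genes). This count is sensitive to single libraries: it was 28 without wild type 2 (53.7% of all genes), 20 without NICcA 3 (65.5% of all genes), 13 without NICcA 2 (55.6% of all genes), 8 without wild type 1 (50.3% of all genes) and 6 without wild type 3 (43.3% of all genes). It was 37 without both libraries numbered 2 (74.3% of all genes) and 25 without both numbered 3 (75.0% of all genes). Ndufa4 stands outside the rule for naming genes and was named after its values were seen. So were Ndufa1, Ndufa5, Ndufa13, Ndufb4, Ndufb6, Ndufc1, Ndufs6 and Ndufv3 below.

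The sequences before the transcription starts of 4 of these 5 genes are shown because they are the members in which the libraries separated; that of Ndufs1 is not in the RefSeq promoter table used. Each run holds the 250 bases upstream of the RefSeq start, 5′ to 3′ on the strand of the gene, in build GRCm38.p6. The coordinates are chr6:11907451-11907700 (minus strand) for Ndufa4, chr2:36049339-36049588 (minus strand) for Ndufa8, chr17:78936885-78937134 (plus strand) for Ndufaf7 and chr4:24897833-24898082 (plus strand) for Ndufaf4. Capitals mark a match to GCGCANGCG on either strand, part of the recognition sequence of NRF1, a transcription factor known for regulating nuclear genes of the respiratory chain.
Ndufa4: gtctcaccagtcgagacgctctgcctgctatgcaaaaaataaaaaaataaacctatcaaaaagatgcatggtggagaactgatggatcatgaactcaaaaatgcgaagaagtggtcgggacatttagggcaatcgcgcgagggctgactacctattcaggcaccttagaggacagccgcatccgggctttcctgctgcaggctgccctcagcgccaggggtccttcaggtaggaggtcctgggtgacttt
Ndufa8: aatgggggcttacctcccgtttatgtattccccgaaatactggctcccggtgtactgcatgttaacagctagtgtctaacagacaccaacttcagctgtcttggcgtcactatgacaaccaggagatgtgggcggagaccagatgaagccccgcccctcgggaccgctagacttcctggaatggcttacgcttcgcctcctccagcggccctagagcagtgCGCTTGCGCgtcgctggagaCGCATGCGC
Ndufaf7: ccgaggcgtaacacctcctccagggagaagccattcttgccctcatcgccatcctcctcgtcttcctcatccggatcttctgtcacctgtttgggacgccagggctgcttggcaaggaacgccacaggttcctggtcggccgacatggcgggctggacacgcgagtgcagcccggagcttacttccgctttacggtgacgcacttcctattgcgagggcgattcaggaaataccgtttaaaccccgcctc
Ndufaf4: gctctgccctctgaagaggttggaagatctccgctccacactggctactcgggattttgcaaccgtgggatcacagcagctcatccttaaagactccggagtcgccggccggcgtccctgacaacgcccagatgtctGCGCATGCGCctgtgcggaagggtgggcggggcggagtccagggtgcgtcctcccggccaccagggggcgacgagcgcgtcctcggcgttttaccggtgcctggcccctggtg
Ndufa8 holds 2 matches, the farther of which begins 29 bases upstream of the start. Ndufaf4 holds 1 stretch, beginning 113 bases upstream, that matches on both strands. Ndufa4 and Ndufaf7 hold none. These genes were chosen by their values in these libraries, and whether a match bears on a difference between the groups was not tested.

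Promoter windows were found for 39 of the 45 genes, giving 41 windows. The NRF1 letters occurred in 8 of these windows (19.5%), in the genes Ndufa5, Ndufa8, Ndufa11, Ndufaf4, Ndufb4, Ndufs5 and Ndufs6, and in 1696 of the 32851 windows of all genes in the table (5.16%). The letters CCGGAAG, recognised by GABP and other ETS factors, occurred on either strand in 4 windows (9.76%, in Ndufaf1, Ndufb6, Ndufb7 and Ndufs3) and in 6.91% of all windows. The YY1 letters AAGATGGCG occurred on either strand in none of the 41 windows and in 0.606% of all windows. No gene held both the NRF1 and the GABP letters. The median GC content was 58.0% over the complex I windows and 52.4% over all windows, and GC content bears on how often GC-rich letters occur; its part in these shares was not tested.

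Levels can be compared between genes only per transcript length, and for this the deposited RPKM values (reads scaled to transcript length and library size) were used. Structural subunits and assembly factors formed nearly separate ranges. The median over the 37 subunits was 31.9 RPKM in NICcA and 29.2 RPKM in wild type macrophages, which was 14.1 times the median of the assembly factors in NICcA and 11.5 times in wild type. In NICcA 36 of 37 subunits, and in wild type 37 of 37, had a higher mean RPKM than Ndufaf3, the highest assembly factor. The exception was Ndufs4, an accessory subunit that holds the N module on the enzyme, with a mean of 8.11 RPKM in NICcA and 7.22 RPKM in wild type. RPKM carries no correction for library composition, and on that scale the complex I genes lie higher in NICcA than in the CPM values below.

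The core subunits kept a similar order of RPKM in both groups. Ndufs7, which holds the last iron-sulfur cluster before ubiquinone, averaged 37.0 ± 4.56 RPKM in NICcA (SD, n = 2) and 33.0 ± 5.21 RPKM in wild type (SD, n = 3). Ndufv1, which binds NADH and the flavin, averaged 34.0 ± 1.81 RPKM in NICcA and 29.7 ± 2.41 RPKM in wild type. Ndufs1 and Ndufv2, both iron-sulfur proteins of the N module, were lowest of the core subunits. Ndufs1 averaged 16.5 ± 0.56 RPKM in NICcA and 16.9 ± 0.47 RPKM in wild type, and Ndufv2 17.0 ± 0.70 RPKM in NICcA and 16.6 ± 0.63 RPKM in wild type. Neighbours in the order whose libraries overlapped in both groups were Ndufs7 with Ndufv1, Ndufs8 with Ndufs3, and Ndufv2 with Ndufs1.

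Accessory subunits spread more widely, with mean RPKM between 8.11 and 62.0 in NICcA and between 7.22 and 57.2 in wild type over the 30 tested. In the rows used, Ndufb7, Ndufb10 and Ndufa7 had the highest mean RPKM over all libraries, and Ndufs4 and Ndufa11 followed Ndufa4l2 at the low end. A second, shorter row of Ndufv3, not used for these levels, had 61.2 and 68.0 RPKM in NICcA, against 55.6, 63.6 and 43.1 RPKM in wild type. The Ndufv3 row used had 25.0 and 27.5 RPKM in NICcA, against 23.2, 25.5 and 17.9 RPKM in wild type. Among assembly factors, Ndufaf3 averaged 8.32 ± 0.065 RPKM in NICcA and 6.88 ± 0.86 RPKM in wild type, and Ndufaf5, the lowest, averaged 1.04 ± 0.084 RPKM in NICcA and 0.867 ± 0.093 RPKM in wild type. Ndufaf7 and Ndufaf4 stood in a different order in the groups. In NICcA Ndufaf7 averaged 2.26 ± 0.27 RPKM and Ndufaf4 2.12 ± 0.30 RPKM with overlapping libraries, whereas in wild type Ndufaf7 averaged 1.43 ± 0.42 RPKM and Ndufaf4 2.54 ± 0.32 RPKM with separate libraries.

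**Figure D2:**
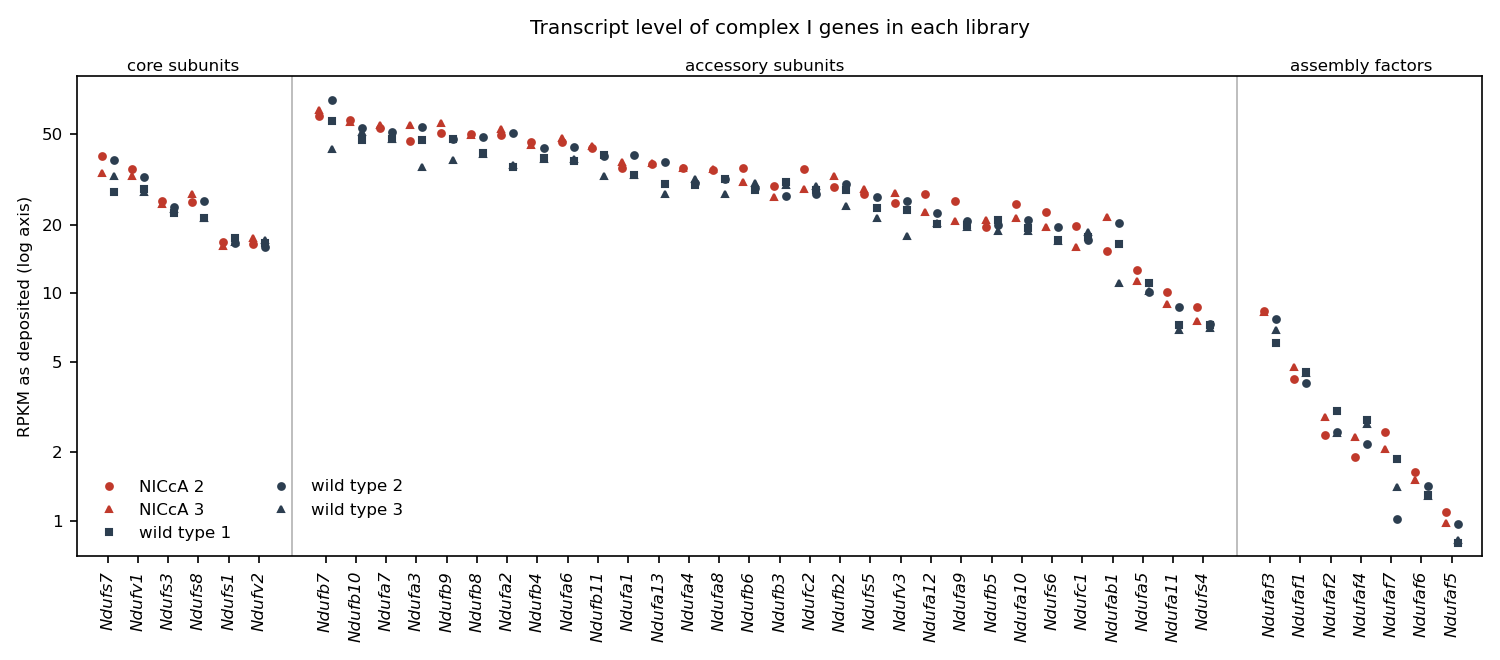
RPKM of complex I genes in each library (43 are drawn) (y axis, log scale), with genes along the x axis grouped by class and ordered by wild type mean; NICcA libraries are drawn left of the wild type libraries of the same gene. Assembly factors lie at the bottom, with group means between 0.867 and 8.32 RPKM.

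For the genotype comparison each gene was followed in CPM, scaled with TMM factors, which correct for library composition. Over the core subunits the median log2 fold change was 0.05, with 4 of 7 above 0 and 3 below. The median turned to -0.05 without wild type 1 and to -0.04 without NICcA 2, so it has no settled direction. In the N module, Ndufv1 had 65.1 and 60.2 CPM in NICcA 2 and 3, against 55.8, 65.6 and 56.4 CPM in wild type 1, 2 and 3. Wild type 2 was the highest library and the groups overlapped. Ndufv2, which carries an iron-sulfur cluster beside the flavin, had 28.5 and 30.1 CPM in NICcA, against 30.1, 30.2 and 32.6 CPM in wild type, again with overlap.

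Ndufs1, the largest subunit, which carries iron-sulfur clusters along the N module, had 58.1 and 55.1 CPM in NICcA, against 63.0, 62.4 and 63.1 CPM in wild type. Both NICcA libraries were below all wild type libraries, and the wild type libraries lay within 0.016 of each other on the log2 scale, the narrowest range of the 44 genes. The log2 fold change was -0.15 (SE 0.09), and it did not pass the test (edgeR adjusted p = 0.45). The estimate stayed below 0 under all 19 alternative fits, between -0.19 and -0.04, with adjusted p between 0.44 and 0.90.

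In the Q module, Ndufs7 had 35.9 and 30.0 CPM in NICcA, against 26.1, 37.4 and 31.8 CPM in wild type. Here too wild type 2 was highest and the groups overlapped. Ndufs8, an iron-sulfur protein of the ferredoxin type, had 30.3 and 33.0 CPM in NICcA, against 27.0, 33.5 and 28.3 CPM in wild type. Ndufs3, a structural subunit without a cofactor, had 28.0 and 27.0 CPM in NICcA, against 26.1, 28.9 and 28.3 CPM in wild type, and its log2 fold change was -0.01 (SE 0.10). These 3 subunits had log2 fold changes between -0.01 and 0.10, all smaller than the range within wild type.

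Of the 30 accessory subunits tested, 26 had a log2 fold change above 0 and 4 below, with a median of 0.08; over all genes tested 50.5% lay above 0 and the median was 0.003. None passed the test. The accessory median was 0.04 without wild type 3, 0.05 without NICcA 2 and 0.16 without wild type 2. By position in the enzyme, the median was 0.10 for the 10 core and accessory subunits of the N module, 0.06 for the 5 of the Q module and 0.06 for the 21 of the membrane arm. Ndufa4 and Ndufa4l2 were given no module. The 4 accessory genes below 0 were Ndufb3, Ndufb5, Ndufa1 and Ndufc1, all of the membrane arm. That arm holds 21 of the 30 accessory subunits tested, and 17 of its genes lay above 0.

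The accessory subunit with the smallest p was Ndufa11, a membrane arm subunit near the contact with other complexes in supercomplexes. It had 31.8 and 27.9 CPM in NICcA, against 23.9, 29.9 and 23.6 CPM in wild type, a log2 fold change of 0.21 (SE 0.15; edgeR adjusted p = 0.52). Wild type 2 lay between the NICcA libraries, and the other wild type libraries lay below both. Ndufa2, a small N module subunit, had 31.0 and 32.7 CPM in NICcA, against 23.4, 34.6 and 24.9 CPM in wild type. There wild type 2 was above both NICcA libraries, and the log2 fold change was 0.20 (SE 0.19). Ndufb3, of the distal membrane arm, had the lowest log2 fold change of the accessory subunits, -0.17 (SE 0.12; edgeR adjusted p = 0.52), with 18.6 and 16.5 CPM in NICcA, against 20.3, 18.4 and 20.5 CPM in wild type.

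Other accessory subunits of the membrane arm lay closer to 0. Ndufb9, a member of the LYR family that binds the acyl carrier protein, had a log2 fold change of 0.14, Ndufb5 of -0.09 and Ndufa10, a relative of nucleoside kinases, of 0.11. Ndufa8, a disulphide-bonded subunit on the side of the intermembrane space, had 30.4 and 30.5 CPM in NICcA, against 28.9, 30.4 and 26.0 CPM in wild type. Its groups did not overlap, but NICcA 2 and wild type 2 were nearly equal, and the log2 fold change was 0.10 (SE 0.11; edgeR adjusted p = 0.68). Ndufs5, on the same side of the membrane, had 16.3 and 17.2 CPM in NICcA, against 14.9, 17.3 and 14.0 CPM in wild type, with overlap.

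Ndufab1, the mitochondrial acyl carrier protein, which also serves fatty acid and lipoic acid synthesis, varied most among the wild type libraries. It had 14.5 and 20.3 CPM in NICcA, against 16.2, 20.9 and 11.4 CPM in wild type, so the NICcA libraries lay inside the wild type range, and the 95% interval of its fold change ran from 0.67 to 1.72. Ndufb7, the accessory subunit with the highest RPKM, had 37.7 and 39.8 CPM in NICcA, against 37.8, 48.6 and 29.6 CPM in wild type. Its log2 fold change was 0.003 (SE 0.21). Ndufb10 and Ndufa7, the next in RPKM among the rows used, had log2 fold changes of 0.06 and 0.03.

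In the N module, Ndufa6, another LYR protein, had 30.4 and 31.7 CPM in NICcA, against 26.4, 31.6 and 28.1 CPM in wild type, and Ndufa12, a relative of the assembly factor Ndufaf2, had 18.04 and 14.9 CPM in NICcA, against 14.0, 16.3 and 14.8 CPM in wild type. Ndufs4 had 15.7 and 13.5 CPM in NICcA, against 13.7, 14.5 and 13.9 CPM in wild type. In all 3 genes the groups overlapped. Ndufa13, also called GRIM-19 and known outside complex I as a partner of STAT3, had 54.2 and 54.9 CPM in NICcA, against 46.7, 61.0 and 43.8 CPM in wild type, with overlap. Ndufa4, named as a complex I gene but since assigned to cytochrome c oxidase, had 20.5 and 20.4 CPM in NICcA, against 18.1, 19.4 and 20.2 CPM in wild type. Its groups did not overlap, by a margin far smaller than the wild type range, and its log2 fold change was 0.09 (SE 0.11; edgeR adjusted p = 0.72).

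Ndufa4l2, the hypoxia-induced paralogue of Ndufa4, was the single gene below the filter on low counts. It had 2 and 4 reads in NICcA 2 and 3, against 26, 10 and 0 reads in wild type 1, 2 and 3, out of 57442309 to 76562905 counts per library. Most wild type reads came from wild type 1, while wild type 3 had none, which allows up to 3 counts. Wild type 1 was also the library with the highest stromal markers (all 7 listed, 4 of them tested), a summed 18.4 CPM against 1.52 to 2.57 CPM in the other wild type libraries and 3.14 and 1.40 CPM in NICcA; the part of such cells in the Ndufa4l2 reads was not tested.

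Assembly factors spread more widely than subunits, with log2 fold changes between -0.38 and 0.55, a median of 0.12, and 4 of 7 above 0; none passed the test. The median was 0.05 without NICcA 2, 0.06 without wild type 1 and 0.18 without wild type 2. The factors of the Q module did not share a direction. Ndufaf4, which acts with Ndufaf3 on early intermediates of the Q module, had 8.12 and 9.90 CPM in NICcA, against 12.5, 10.2 and 12.4 CPM in wild type. Both NICcA libraries were below all wild type libraries, NICcA 3 by little below wild type 2. The log2 fold change was -0.38 (SE 0.16; edgeR adjusted p = 0.36), the smallest p of all 44 genes at an unadjusted 0.062. Ndufaf3 had 10.5 and 10.3 CPM in NICcA, against 7.93, 10.6 and 9.42 CPM in wild type, with overlap and a log2 fold change of 0.16 (SE 0.16).

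Ndufaf7, a mitochondrial protein arginine methyltransferase, had 6.64 and 5.59 CPM in NICcA, against 5.31, 3.03 and 4.17 CPM in wild type. Both NICcA libraries were above all wild type libraries, and wild type 1 was close to NICcA 3. The log2 fold change was 0.55 (SE 0.26; edgeR adjusted p = 0.37), the largest of the 44 genes in size. It was above 0 in all 19 alternative fits, between 0.24 and 0.78, with the adjusted p lowest (0.20) without wild type 1 and highest (0.90) without NICcA 2. Its value was lowest, at 0.24, without both libraries numbered 2, and it was 0.37 without wild type 2. Ndufaf5, which hydroxylates Ndufs7, had 3.52 and 3.12 CPM in NICcA, against 2.71, 3.43 and 2.90 CPM in wild type.

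The remaining factors differed by less than their spread in wild type. Ndufaf1, part of the complex that assembles the membrane arm, had 7.18 and 8.07 CPM in NICcA, against 8.09, 7.53 and 8.33 CPM in wild type. Ndufaf2, which attends the late addition of the N module before Ndufa12 replaces it, had 1.91 and 2.27 CPM in NICcA, against 2.55, 2.16 and 2.12 CPM in wild type. Ndufaf6, an early factor, had 2.08 and 1.91 CPM in NICcA, against 1.74, 1.99 and 1.79 CPM in wild type. Of the 14 listed assembly factors whose symbols do not begin with Nduf, 11 were in the table and none passed the test, with a median log2 fold change of -0.02, 5 above 0 and 6 below. Those with the smallest p were Timmdc1, which acts on the membrane arm, with a log2 fold change of -0.42 (SE 0.22), and Lyrm2, with -0.30 (SE 0.16), each at an edgeR adjusted p of 0.41.

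**Figure D3:**
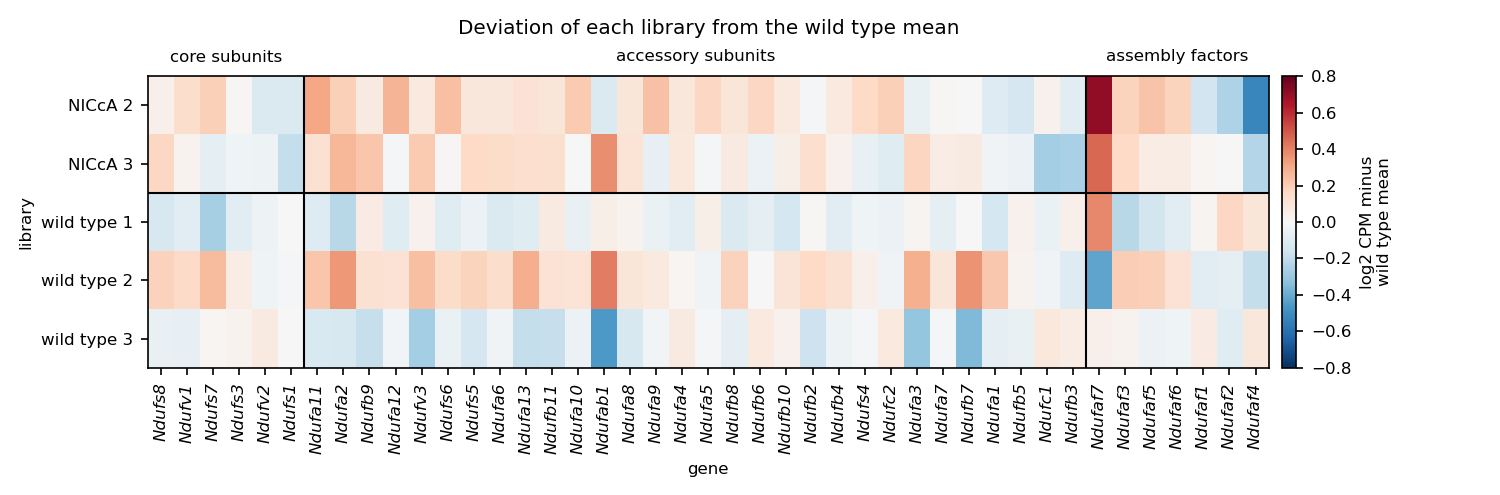
Log2 CPM of tested complex I genes (43 are drawn) (x axis, by class and then by fold change) in each library (rows, NICcA above wild type), as the difference from the wild type mean; red is above and blue below that mean. Wild type 2 is the highest of the wild type rows in most of the genes drawn.

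The range among the wild type libraries exceeded the size of the log2 fold change in 40 of 44 genes; its median was 0.24 on the log2 scale, against 0.34 over all genes tested and 0.28 over those with at least 5 CPM. Wild type 2 was the highest of the wild type libraries in 31 of the 44 genes (70.5%), against 34.0% of all genes, and wild type 1 the lowest in 24 (54.5%), against 32.1% of all genes. Summed over all 45 genes, complex I reached 1213 and 1189 CPM in NICcA, against 1112, 1261 and 1093 CPM in wild type. The NICcA sums thus lay inside the wild type range.

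The classes followed this pattern to different degrees. The median deviation of the accessory subunits from the wild type mean was 0.09 and 0.06 in NICcA 2 and 3, against -0.05, 0.12 and -0.06 in wild type 1, 2 and 3. For the core subunits it was 0.04 and -0.04 in NICcA, against -0.08, 0.11 and 0.01 in wild type. For the assembly factors it was 0.18 and 0.06 in NICcA, against 0.02, -0.07 and 0.02 in wild type. Of these classes the assembly factors alone had both NICcA medians above all wild type medians, and their wild type 2 median was not high. These are medians of 7 genes, and the summed levels overlapped, at 39.9 and 41.2 CPM in NICcA, against 40.8, 39.0 and 41.2 CPM in wild type. The 11 assembly factors outside the Nduf name had medians of 0.003 and 0.011 in NICcA, against 0.009, 0.031 and -0.075 in wild type.

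Scaling bears on how these values are read. As shares of the unscaled library totals, complex I counts made up 0.125% and 0.126% in NICcA, against 0.112%, 0.121% and 0.104% in wild type, so without TMM factors the groups did not overlap. Without those factors the median over all genes tested was 0.11 in place of 0.003, that of the accessory subunits was 0.19, and 25 of 44 genes, all higher in NICcA, had groups that did not overlap, against 38.1% of all genes. Relative to the median of all genes, the accessory subunits lay between 0.05 and 0.14 in all 19 alternative fits, whereas the core subunits lay between -0.05 and 0.11, on both sides of 0.

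Transcript length moved with these differences. The tested genes were ranked by the length that the deposited counts and RPKM values imply and divided into 5 groups of equal size, and 38 of the 44 complex I genes fell in the group with the shortest transcripts. The median log2 fold change over all genes was 0.08 in the shortest group, 0.05, -0.01 and -0.03 in the next, and -0.07 in the longest. The 38 complex I genes of the shortest group had a median of 0.08, the same as all 2669 genes there to 2 decimals. In that group wild type 2 and wild type 3 also stood apart, with median deviations of 0.09 and -0.07, and NICcA 2 and 3 had 0.09 and 0.06. Wild type 1 differed between the sets, with -0.004 in the shortest group and -0.05 over the complex I genes. The part of transcript length in the complex I values was not tested.

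**Figure D4:**
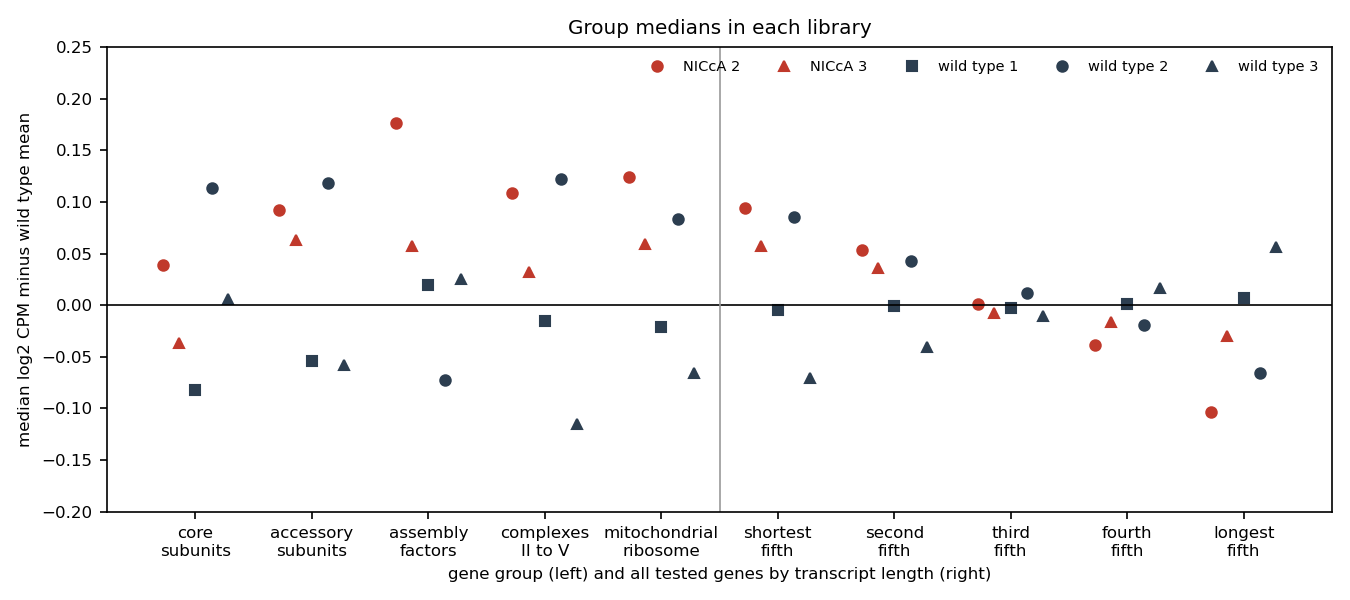
Median deviation from the wild type mean (y axis, log2 CPM) in each library, for complex I classes and related gene lists (left) and for all tested genes in 5 groups by transcript length (right); NICcA libraries are drawn left of wild type libraries. The shortest group has the same ordering of wild type libraries as complexes II to V and the mitochondrial ribosome, with wild type 2 highest and wild type 3 lowest, and the order turns over in the longest group.

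Several complex I genes had more than 1 transcript row. The 4 rows of Ndufs1 and the 3 rows of Ndufs8 shared most of their reads, each lesser row holding 98.0% to 99.7% of the top row's count for Ndufs1 and 88.9% to 100% for Ndufs8, so these rows are not independent measurements. Ndufv3, an N module subunit with a long and a short splice form, had 2 rows. The row of the shorter transcript had 75.4% and 76.2% of the count of the longer one in NICcA, against 74.1%, 76.9% and 74.3% in wild type. This ratio of row counts overlapped between groups. Reads can be counted in both rows, so the ratio does not measure the use of the splice forms, and the rows may not be independent. The log2 fold changes of the Ndufv3 rows were 0.13 (SE 0.16) for the longer and 0.14 (SE 0.18) for the shorter. The second deposited table also lists a noncoding transcript of Ndufs6, at 20.4 and 17.4 RPKM in NICcA, against 15.4, 17.5 and 15.2 RPKM in wild type, with overlap. The coding row of Ndufs6 moved in parallel, at 22.8 and 19.5 RPKM in NICcA, against 17.2, 19.6 and 17.0 RPKM in wild type. Rows of a gene can share reads, so these values do not show that the noncoding transcript is expressed on its own.

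The other respiratory complexes and the mitochondrial ribosome gave values close to those of complex I. Of the 39 tested subunits of complexes II to V, none passed the test, 31 had a log2 fold change above 0, and the median was 0.05. It was -0.04 for the 4 genes of complex II, 0.06 for the 9 of complex III, 0.05 for the 11 of complex IV and 0.07 for the 15 of complex V. The largest named difference was in Atp5e, a small subunit of the ATP synthase, with 61.0 and 64.7 CPM in NICcA, against 56.7, 38.4 and 47.9 CPM in wild type (log2 fold change 0.40, SE 0.17; edgeR adjusted p = 0.36). The 76 mitochondrial ribosomal protein genes had a median of 0.08, with 59 above 0 and none past the test, and the 81 tested cytosolic ribosomal protein genes a median of 0.21, with 76 above 0 and none past the test.

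Regulators of mitochondrial biogenesis did not pass the test either: of 12 genes, 6 lay above 0 and 6 below, with a median of -0.02. Gabpa, the DNA-binding chain of GABP, had 40.1 and 48.1 CPM in NICcA, against 55.1, 48.7 and 52.6 CPM in wild type (log2 fold change -0.24, SE 0.12; edgeR adjusted p = 0.40). Ppargc1b, a coactivator of respiratory genes, had 11.7 and 8.87 CPM in NICcA, against 12.2, 13.9 and 12.0 CPM in wild type (log2 fold change -0.31, SE 0.17; edgeR adjusted p = 0.42). In both, the NICcA libraries were below all wild type libraries, in Gabpa by little. This was so for 3 of the 12 regulators (25.0%), against 18.5% of all genes. Of 6 other genes, for enzymes that use NADH or reduce quinones (Nnt, Gpd2, Dhodh, Etfdh, Sqrdl and Aifm2), none passed the adjusted test. At an unadjusted edgeR p below 0.05 there was 1 (14.5% of all genes). The groups did not overlap in 5 of the 6 (83.3%, 2 higher and 3 lower in NICcA), against 36.8% of all genes. Gpd2, the mitochondrial glycerol-3-phosphate dehydrogenase, had 35.6 and 22.2 CPM in NICcA, against 19.8, 22.1 and 19.3 CPM in wild type (log2 fold change 0.50, SE 0.21, edgeR adjusted p = 0.35). Its NICcA 3 and wild type 2 values were nearly equal. Aifm2, an NADH-dependent quinone reductase, had 32.3 and 32.1 CPM in NICcA, against 40.7, 46.9 and 35.5 CPM in wild type (log2 fold change -0.35, SE 0.14, edgeR adjusted p = 0.34).

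The libraries held 64870248 and 68110891 counts in NICcA, against 57442309, 76562905 and 69140350 counts in wild type, and the macrophage markers (8 of 9 in the table) were abundant, with summed levels of 11888 and 12444 CPM in NICcA, against 13747 to 20200 CPM in wild type. Most of that sum was Lyz2, with 9302 and 10411 CPM in NICcA, against 11521, 14308 and 17517 CPM in wild type. Of these 8 markers, 4 had a log2 fold change above 0 and 4 below (median -0.0008). The Fc receptor Fcgr1 was higher by DESeq2 (edgeR log2 fold change 0.91, DESeq2 adjusted p = 0.041, edgeR adjusted p = 0.29). All 14 genes of classical activation had a log2 fold change above 0, with a median of 3.39, and their summed level was 1724 and 237 CPM in NICcA, against 120 to 188 CPM in wild type, so the NICcA libraries differed sharply from each other there (0 of 14 past the adjusted edgeR test, 9 at an unadjusted p below 0.05, 6 higher by DESeq2). Dendritic cell markers (8 listed) summed to 214 and 121 CPM in NICcA, against 61.3 to 117 CPM in wild type. In NICcA most of that sum was Ccr7, with 166 and 69.4 CPM, against 33.5, 77.6 and 23.7 CPM in wild type. Of the 8 markers, 7 had a log2 fold change above 0 and 1, Clec9a, below (-1.14), with a median of 1.21. Both NICcA libraries were above all wild type libraries for 6 of the 8 (75.0%), against 18.3% of all genes. None passed the adjusted edgeR test (0.03% of all genes did), and 1 was higher by DESeq2 (3.95% of all genes were called in either direction). Neutrophil markers (8 of 9 in the table) summed to 594 and 737 CPM in NICcA, against 660 to 1010 CPM in wild type, mostly Mmp8, whose log2 fold change was -0.46. The other 7 lay above 0 and the median of the list was 0.46; the granule gene Ngp was higher by DESeq2 (edgeR log2 fold change 0.83, DESeq2 adjusted p = 0.035, edgeR adjusted p = 0.28). Lymphocyte markers (all 7 listed, 3 of them tested) summed to 0.897 and 1.07 CPM in NICcA, against 0.669 to 1.06 CPM in wild type, and erythroid markers (all 5 listed, 2 of them tested) to 1.05 and 0.721 CPM in NICcA, against 0.450 to 0.607 CPM in wild type. No listed marker was at 0 in every library. Lyz2, Mmp8, Ccr7, Clec9a and Pdgfrb were named after their values were seen. In bulk RNA fewer cells of a type and less RNA per cell cannot be told apart, and the part of cell composition in the complex I values was not tested.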

How the data were processed

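Per the labels' protocols, RNA of macrophages grown from bone marrow was sequenced on an Illumina instrument. Bowtie 0.12.2 and build mm8 appear in the submitters' processing notes without their roles; the counter and its strand setting are not stated there. Per the file headers, the authors deposited read counts and RPKM for 27457 transcript rows, and a second table of RPKM alone with 64528 rows; the RPKM of the complex I rows was identical in both. Transcript rows of a gene, and paralogues, can share reads.

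The main test on counts was that of edgeR 4.0.16 under R 4.3.3 (TMM factors, filterByExpr, glmQLFit, glmQLFTest, genotype as the only term), with Benjamini-Hochberg adjustment over 18267 rows (13341 genes) at 0.05. SE values were derived from the log2 fold change and its F statistic. Deviations are log2 CPM with a prior count of 2. DESeq2 1.42.0 and limma 3.58.1 were alternatives, limma also on log2(RPKM + 1) and log2(RPKM + 0.1), which understates changes of low genes. Scaling (none, RLE or upper quartile), the filter on low counts, 1 row per gene, a replicate block and leaving out libraries were also tried. Only the main fit was run on simulated counts, with a fixed dispersion for all rows, and the outcome is not reported here. The common biological coefficient of variation was 22.5%, and intervals at 95% and the floor of 3 counts for a count of 0 rest on few libraries or cover counting error only.

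The genes and lists were chosen with earlier results of these data known. 1 gene is counted but not reported by name. Named by rule are the other core subunits, all assembly factors, the accessory subunits with the 10 smallest p, the 3 highest and 3 lowest RPKM and the widest wild type range, and up to 2 genes of other lists with the smallest p. Of these, some markers and respiratory genes are summarised only. Promoter sequences are from RefSeq (GRCm38.p6), used for sequence only since the build differs from that of the files.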

Additional observations from a re-analysis of the deposited data

How the results depend on the processing

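None of the 44 genes passed the adjusted test in any of the 19 alternative fits (lowest adjusted p 0.20, Ndufaf7 without wild type 1), and at most 4 reached an unadjusted p below 0.05 (Ndufa11, Ndufa13, Ndufa2 and Ndufaf4, without wild type 2, against 12.3% of all genes). Over all genes the calls numbered 4. They were 11 without the low-count filter, 527 with DESeq2 (273 higher, 254 lower), 2 with limma-voom, 2 with limma on log2(RPKM + 1), 8 with the newer edgeR fit (legacy = FALSE), and 0 to 44 leaving out 1 library. Without both libraries numbered 2 they were 0, and without both numbered 3 they were 161.

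The labels do not say what a replicate number marks, and NICcA and wild type share numbers 2 and 3 only. Deviations of same-numbered libraries correlated at 0.23 for number 2 and 0.13 for number 3, and at -0.13 and -0.23 when crossed, over 11258 genes; the NICcA deviations mirror each other, so these are not separate values. With the replicate block 0 genes were called, the core median was -0.055, and the estimates of Ndufs7 (-0.074), Ndufb10 (-0.0068) and Ndufa7 (-0.0065) turned below 0. The block is a hint from the data, not the design.

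Medians moved with the scaling. Without scaling factors, with log2(RPKM + 1) and with log2(RPKM + 0.1) in turn, the core median was 0.16, 0.17 and 0.17, and the accessory median 0.19, 0.19 and 0.20. The assembly factor median was 0.22 without factors and 0.22 with log2(RPKM + 0.1). Leaving out 1 library gave core medians of -0.051 to 0.12, accessory medians of 0.045 to 0.16 and assembly factor medians of 0.049 to 0.18. Genes whose groups did not overlap numbered 25 without factors (38.1% of all genes), 23 in RPKM (39.1% of all genes), 6 (43.3% of all genes) to 28 (53.7% of all genes) leaving out 1 library, 37 without both libraries numbered 2 (74.3% of all genes) and 25 without both numbered 3 (75.0% of all genes). The median level of the 45 complex I genes in NICcA was 26.3 RPKM, 28.1 RPKM as a mean over rows and 27.3 to 27.5 RPKM leaving out 1 library.

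Of 551 estimates of the 29 tested members named by rule, 514 kept their direction and 37 turned; 16 members had none that turned. Under no factors, log2(RPKM + 1) and log2(RPKM + 0.1) in turn, Ndufs3 was 0.093, 0.097 and 0.101, Ndufv2 0.029, 0.034 and 0.036, Ndufaf1 0.040, 0.038 and 0.045, and Ndufb5 0.012, 0.020 and 0.020. With 1 row per gene Ndufb7 was -0.00044. Leaving out 1 library gave -0.051 to 0.016 for Ndufs3, -0.087 to 0.18 for Ndufs7, -0.15 to 0.014 for Ndufaf1, -0.012 to 0.27 for Ndufa12, -0.16 to 0.20 for Ndufb7, -0.0028 to 0.11 for Ndufb10, -0.0031 to 0.079 for Ndufa7, -0.059 to 0.16 for Ndufs4 and -0.16 to 0.33 for Ndufab1. Without both libraries numbered 2 Ndufs4 was -0.035, and without both numbered 3 Ndufs3 was 0.022, Ndufs8 -0.0012, Ndufb9 -0.022, Ndufb7 -0.20, Ndufa7 -0.0021 and Ndufab1 -0.36. The cause of these moves was not tested.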
